A study of Homo sapiens with 8 samples.

Results

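Cisplatin transport and detoxification genes were followed in the human ovarian carcinoma cell line IGROV-1, growing in the abdomen of mice. The set had 10 genes chosen by name: the copper importer SLC31A1, the copper-exporting ATPases ATP7A and ATP7B, the drug exporters ABCC1, ABCC2 and ABCC3, the glutathione S-transferase GSTP1 and the metallothioneins MT2A, MT1X and MT1E. Of these, 9 were named by at least 1 probe of the platform annotation, with 11 probes of the 48797 on the array. The genes were chosen with earlier results of these data known, and ABCC1 was not analysed here. A probe was kept for testing when its detection p-value was under 0.05 on at least 4 of the 8 arrays. This held for 10 of the 11 probes and for 9 of the 9 genes, and the probe left out was the dimmer one of MT1E.

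Each sample was hybridised to its own 1-colour Illumina bead array, with 4 arrays from mice given saline and 4 from mice given CpG-ODN (ODN1826), a synthetic phosphorothioate oligonucleotide with unmethylated CpG motifs that is sensed by Toll-like receptor 9. Per the labels, both groups carried ascitic IGROV-1 cells injected i.p., and saline or 20 µg of CpG-ODN per mouse was given i.p. from day 10 or 11. Tumor cells adhering to the peritoneal wall were taken 24 hours after the last treatment, with 4 mice per group. CpG-ODN was given either on 3 days in a row or 1 time, and the labels do not tie an array to either schedule. All tumor cells came from 1 cell line, the strain and immune status of the hosts are not given in the labels, and the labels mention no cisplatin treatment.

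Cisplatin is a platinum drug that enters cells in part through the copper importer SLC31A1, also called CTR1. ATP7A and ATP7B pump copper out of the cytosol and can sequester or export platinum, while ABCC proteins export drug conjugated to glutathione. Metallothioneins are small cysteine-rich proteins that bind zinc, copper and platinum, and their genes are switched on by the zinc-sensing factor MTF1 through metal response elements (MREs) in their promoters.

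The promoters of MT1X, MT2A and SLC30A1 are shown because MT1X and MT2A are members of one gene cluster whose probes responded unequally, and because SLC30A1, a zinc exporter that is a textbook target of MTF1, rose by both of its probes. Each window runs from 250 bases before to 50 bases after the annotated start, taken from RefSeq on GRCh38.p14 and written 5′ to 3′ on the strand of the gene. Capitals mark the MRE core, searched as TGCACNC and TGCGCNC on both strands with overlaps counted. The windows are chr16:56682220-56682519 on the plus strand for MT1X, chr16:56608334-56608633 on the plus strand for MT2A and chr1:211579112-211579411 on the minus strand for SLC30A1.
MT1X: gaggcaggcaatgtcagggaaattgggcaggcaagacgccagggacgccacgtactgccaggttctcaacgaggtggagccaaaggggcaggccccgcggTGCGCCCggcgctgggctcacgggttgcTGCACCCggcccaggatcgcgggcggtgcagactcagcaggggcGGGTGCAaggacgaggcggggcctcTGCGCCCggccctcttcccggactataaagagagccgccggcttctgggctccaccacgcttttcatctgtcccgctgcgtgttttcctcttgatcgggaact
MT2A: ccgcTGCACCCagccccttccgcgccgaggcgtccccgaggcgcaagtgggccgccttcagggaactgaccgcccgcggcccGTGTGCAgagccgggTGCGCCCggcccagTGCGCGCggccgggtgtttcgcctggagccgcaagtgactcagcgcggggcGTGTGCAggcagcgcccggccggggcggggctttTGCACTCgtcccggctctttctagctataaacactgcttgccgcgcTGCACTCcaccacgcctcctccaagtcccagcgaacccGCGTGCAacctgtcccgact
SLC30A1: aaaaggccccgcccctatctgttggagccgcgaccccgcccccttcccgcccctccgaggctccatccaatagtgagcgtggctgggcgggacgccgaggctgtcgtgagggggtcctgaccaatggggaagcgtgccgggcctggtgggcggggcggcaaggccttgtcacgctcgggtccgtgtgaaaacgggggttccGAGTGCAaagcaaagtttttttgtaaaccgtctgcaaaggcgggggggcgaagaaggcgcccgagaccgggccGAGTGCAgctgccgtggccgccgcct
The core occurred 4 times in the MT1X window, 8 times in that of MT2A and 2 times in that of SLC30A1. At least 1 match was found in 29.6% of all 35116 promoter windows of the same length, and at least 4 matches in 0.6%. Windows were at hand for 7 of the 10 genes. SLC31A1 and ATP7A had 0 matches, ABCC2 and GSTP1 had 1 each, and the 3 windows of ATP7B had 1, 2 and 0. A match is a string of letters and was not tested for binding here.

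Among the member probes, SLC31A1 and MT1X rose and ATP7A fell with CpG-ODN, 3 of the 10 probes tested, against 26.6% of all 18184 kept probes. Of all kept probes 12.8% rose and 13.9% fell, against 2 and 1 of the members. Calls were made with limma at a Benjamini-Hochberg adjusted p under 0.05 over all kept probes. The share of members called was close to that of all probes, so the count sets the members apart from nothing. ATP7A was detected on 4 saline and 0 CpG-ODN arrays and passed the filter through the saline group alone, so its call is no support for the count. The groups did not overlap at the same 3 probes, against 28.9% of all kept probes. At an adjusted p under 0.01, MT1X and ATP7A remained, against 13.7% of all kept probes. The median log2 fold change was 0.12 over the 10 member probes and 0.01 over all kept probes. Over the 9 genes, each by its brightest probe, the median was -0.12, so its sign rested on which probes were counted, and 3 of 9 genes (33.3%) were called, with 29.2% of all genes. In these bulk samples, fewer cells of a type and less RNA per cell cannot be told apart.

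**Figure D1:**
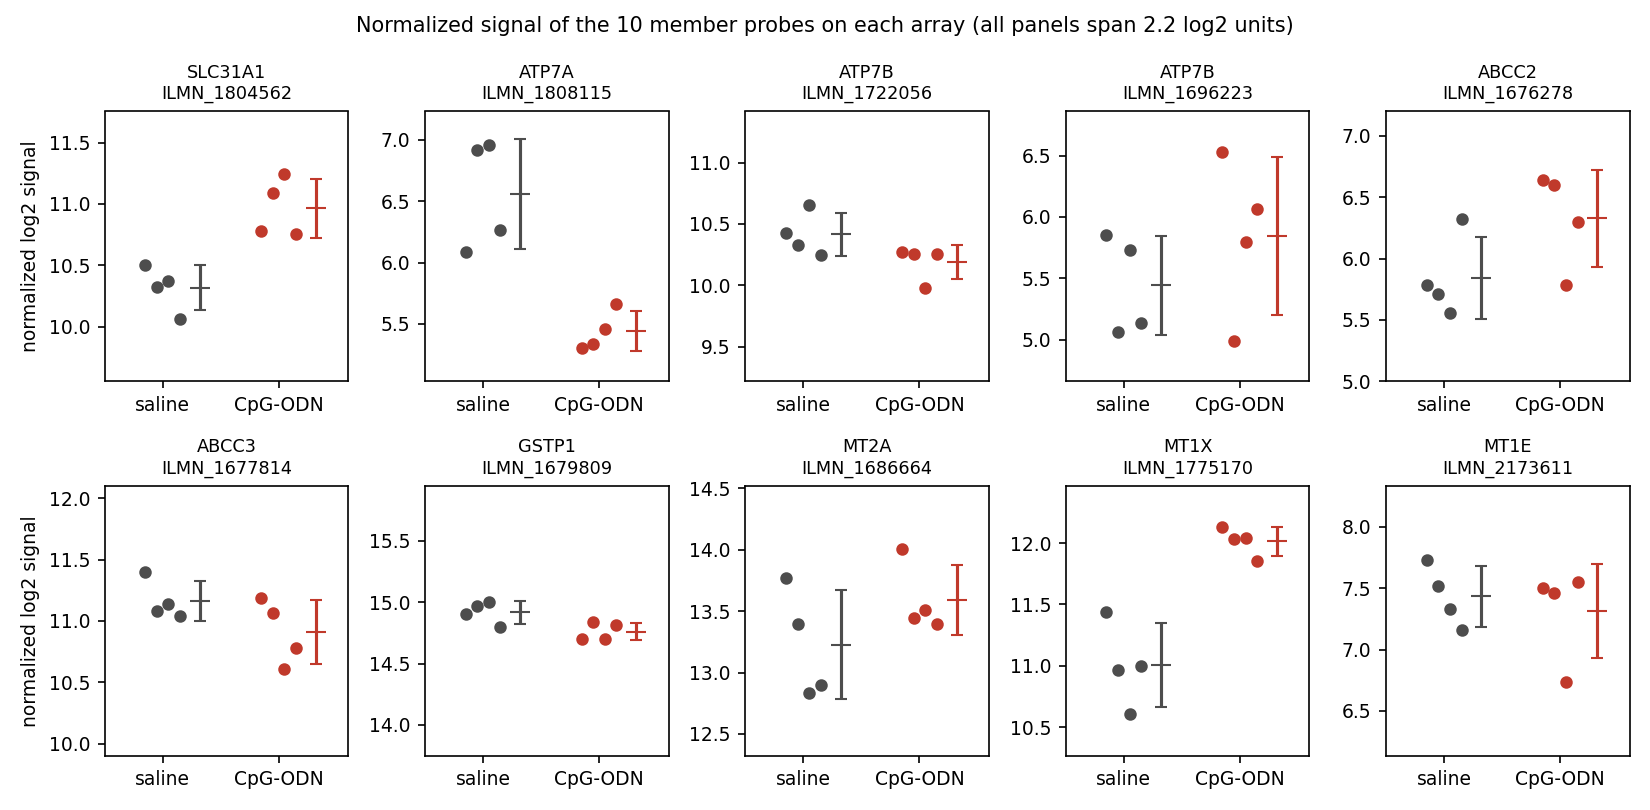
Normalized log2 signal (vertical axis) of the 10 kept member probes on each of the 4 saline arrays (grey) and 4 CpG-ODN arrays (red), with the group mean and SD beside the points. SLC31A1 and MT1X lie higher on all 4 CpG-ODN arrays than on any saline array, ATP7A lies lower, and the other 7 probes overlap.

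Entry of copper and platinum was represented by SLC31A1. Its normalized log2 signal was 10.50, 10.32, 10.37 and 10.06 on saline arrays 1 to 4 and 10.78, 11.09, 11.24 and 10.75 on CpG-ODN arrays 1 to 4. All 4 CpG-ODN arrays lay above the saline arrays. The mean rose from 10.32 ± 0.18 (SD, n = 4) to 10.96 ± 0.24 (SD, n = 4), a log2 fold change of 0.65 ± 0.15 (SE, limma adjusted p = 0.0108) or 1.57-fold. With arrays scaled to the median of all probes the change was 0.54 and no longer passed (adjusted p = 0.116). That scaling moved the median of all kept probes from 0.01 to -0.10. SLC31A2, a related protein of copper handling, gave 0.24 (95% interval -0.09 to 0.58, adjusted p = 0.27).

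The signal of ATP7A was lower with CpG-ODN. The deposited signal of its 1 probe was 262, 298, 303 and 248.8 on saline arrays 1 to 4, with detection p-values from 0.00264 to 0.0198. On CpG-ODN arrays 1 to 4 it was 195, 194, 214 and 211, with detection p-values from 0.0632 to 0.209. The probe was thus above background on 4 of 4 saline arrays and on 0 of 4 CpG-ODN arrays, and the groups did not overlap. The fitted log2 change was -1.12 ± 0.21 (SE, limma adjusted p = 0.00335). By the group means ATP7A was at least 1.71-fold lower with CpG-ODN, a bound that leaves out the spread between arrays. Because detection in saline alone brought the probe into the test, a difference was built into its selection, and with no filter the adjusted p was 0.00354. For the bound the CpG-ODN value of each array was raised to the lowest signal detected there wherever the probe lay under it. The normalized mean was 6.56 ± 0.45 (SD, n = 4) over the saline arrays and 5.44 ± 0.16 (SD, n = 4) over the CpG-ODN arrays. The fitted log2 change of -1.12 became -0.35 without background correction and -0.74 with an offset of 50, where it still passed. Both changes are smaller than the bound, so the bound holds only for the background correction and offset used. The number of probes above background was also lower with CpG-ODN, from 18425 to 18570 per array against 18784 to 20114 in saline, and its part in the loss of ATP7A signal was not tested.

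ATP7B, the second copper ATPase, did not pass by either probe. Its brighter probe stood at 10.43, 10.33, 10.66 and 10.24 in saline and at 10.27, 10.25, 9.98 and 10.26 with CpG-ODN. The ranges met at 10.24 to 10.27, and the log2 fold change was -0.22 (95% interval -0.52 to 0.07, adjusted p = 0.246). The dimmer probe was detected on 2 saline and 3 CpG-ODN arrays and stood at 0.40 (95% interval -0.28 to 1.08, adjusted p = 0.376). With 1 array left out in turn this value ran from 0.17 to 0.69, and without background correction it was 0.12. Whether the responses of ATP7A and ATP7B differ from each other was not tested.

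The conjugate exporters of the set did not pass. ABCC2, which exports glutathione conjugates at the apical membrane, was detected on 2 saline and 3 CpG-ODN arrays. It stood at 5.78, 5.71, 5.56 and 6.33 in saline and at 6.64, 6.60, 5.78 and 6.30 with CpG-ODN, with saline replicate 4 and CpG-ODN replicate 3 crossing over. The log2 fold change was 0.48 (95% interval -0.01 to 0.98, adjusted p = 0.135), and without CpG-ODN replicate 3 it was 0.66 and passed (adjusted p = 0.0368). ABCC3, its basolateral relative, was detected on all 8 arrays, at 11.40, 11.08, 11.14 and 11.04 in saline and 11.18, 11.06, 10.60 and 10.78 with CpG-ODN. Its log2 fold change was -0.26 (95% interval -0.60 to 0.09, adjusted p = 0.257), so a rise of more than 0.09 lies outside the interval.

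GSTP1, which joins glutathione to electrophilic drugs, was detected strongly on every array and hardly varied. It stood at 14.90, 14.97, 15.002 and 14.79 in saline and at 14.70, 14.84, 14.70 and 14.81 with CpG-ODN. The SD within a group was 0.09 in saline and 0.07 with CpG-ODN, the smallest in each group among the 10 member probes. The log2 fold change was -0.16 (95% interval -0.40 to 0.09, adjusted p = 0.333), and it was 0.05 with arrays scaled to the median of the kept probes.

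The 3 metallothioneins responded unequally. MT1X, a zinc-inducible member, stood at 11.44, 10.96, 10.61 and 11.00 in saline and at 12.13, 12.03, 12.04 and 11.85 with CpG-ODN. Its groups did not overlap, and it rose by a log2 fold change of 1.01 ± 0.17 (SE, limma adjusted p = 0.00201), 2.02-fold. The SD was 0.12 over the CpG-ODN arrays and 0.34 over the saline arrays. MT2A, the isoform usually held to be the most abundant in human cells, stood at 13.77, 13.40, 12.83 and 12.89 in saline and at 14.01, 13.44, 13.51 and 13.40 with CpG-ODN. Saline replicate 1 lay above 3 of the 4 CpG-ODN arrays, and the log2 fold change of 0.36 (95% interval -0.13 to 0.86, adjusted p = 0.264) did not pass. MT1E was detected on all 8 arrays by its brighter probe, at 7.73, 7.52, 7.33 and 7.16 in saline and at 7.50, 7.46, 6.74 and 7.55 with CpG-ODN. Its log2 fold change was -0.12 (95% interval -0.57 to 0.325, adjusted p = 0.707). The dimmer probe of MT1E was detected on 0 saline arrays and 1 CpG-ODN array and was not tested.

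The responses of the metallothioneins were compared within each array, as the log2 signal of 1 gene minus that of another, over 3 pairs. MT1X minus MT2A went from -2.22 ± 0.23 in saline to -1.58 ± 0.21 with CpG-ODN (SD, n = 4), a shift of 0.65 with groups that did not overlap (exact permutation test, two-sided p = 0.0286, Benjamini-Hochberg adjusted p = 0.0429). The nearest arrays of both groups, at -1.90 and -1.88, almost touched. MT1X minus MT1E shifted by 1.13 (exact permutation test, two-sided p = 0.0286, adjusted p = 0.0429), and MT2A minus MT1E by 0.49 (exact permutation test, two-sided p = 0.143, adjusted p = 0.143). With 4 arrays against 4, 0.0286 is the smallest p this test can give. MT1X thus rose relative to both other members, whereas MT2A and MT1E were not separated. Metallothionein transcripts are related to each other in sequence, and which of them each probe binds was not tested here.

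**Figure D2:**
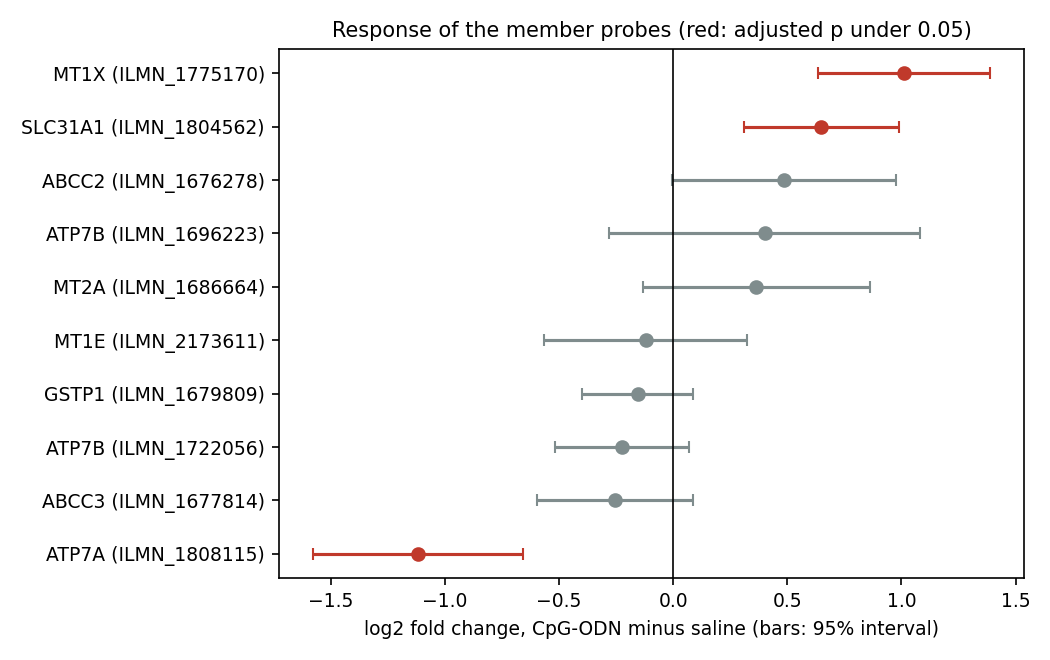
Log2 fold change of each kept member probe, CpG-ODN minus saline (horizontal axis), with its 95% interval from the limma fit. MT1X (1.01) and SLC31A1 (0.65) lie above 0 and ATP7A (fitted -1.12, at background with CpG-ODN) below it in red, and the intervals of the other 7 probes cross 0.

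The metallothionein genes lie side by side on chromosome 16, and the array covered 11 of the 12 listed here. In RefSeq order MT4, MT3, MT1L and MT1M were detected on 0 of the 8 arrays and MT1B on 1, and MT1A was not analysed here. The genes detected on all 8 arrays, each by its brightest probe, were MT2A, MT1E, MT1F, MT1G, MT1H and MT1X, in that order. Of these 6, MT1F and MT1X passed, both higher. Of all genes 29.2% passed in either direction and 12.9% as higher, and with 6 genes the count sets the metallothioneins apart from nothing. MT1F went from between 10.23 and 10.55 in saline to between 10.75 and 11.25 with CpG-ODN, a log2 fold change of 0.62 ± 0.15 (SE, limma adjusted p = 0.0128). Scaling to the median of all probes gave 0.51 for MT1F (adjusted p = 0.124). MT1G stood at 0.45 (95% interval -0.07 to 0.98, adjusted p = 0.191) and MT1H at 0.25 (95% interval -0.27 to 0.77, adjusted p = 0.482). This MT1H probe was near background, with detection p-values from 0.00527 to 0.0369, and the dimmer MT1H probe was detected on 0 arrays. The genes that passed were not next to each other, since MT1G and MT1H lie between them.

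Within the saline group, replicate 1 was the highest array for MT2A, MT1X, MT1E, MT1F and MT1G, and the lowest for MT1H. It was also the array with the highest mean signal, 1079 against 876 to 906 on the other 3 saline arrays, and the part of brightness in these values was not tested. Without it MT1X stood at 1.16 and MT2A at 0.55 (adjusted p = 0.078), and without CpG-ODN replicate 1 MT2A stood at 0.22 (adjusted p = 0.523). Within the CpG-ODN group replicate 1 was the highest for MT2A, MT1X, MT1G and MT1H. Its mean signal was 821, with 1073 on replicate 3, the brightest array of that group.

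The zinc exporter gene SLC30A1 rose by both of its probes. Its protein removes zinc from the cytosol and it shares its control by MTF1 with the metallothioneins. The brighter probe went from between 8.82 and 9.67 in saline to between 10.69 and 11.00 with CpG-ODN, and the dimmer probe from between 8.56 and 9.16 to between 10.30 and 10.77. Neither probe overlapped between the groups. The log2 fold changes were 1.503 ± 0.19 (SE, limma adjusted p = 0.000394) and 1.63 ± 0.16 (SE, limma adjusted p = 0.000124), 2.83-fold and 3.10-fold. MTF1 itself stood at -0.18 (95% interval -0.49 to 0.13, adjusted p = 0.379) and did not pass. The part of MTF1 in these responses was not tested.

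**Figure D3:**
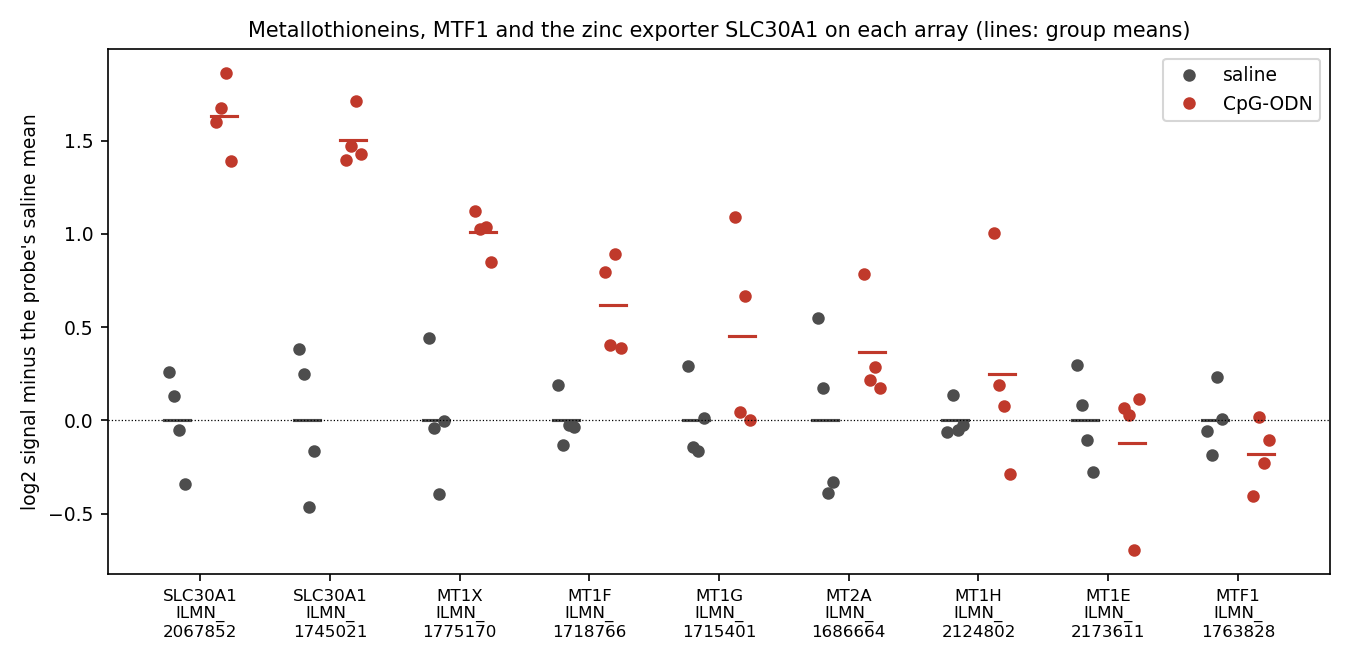
Log2 signal minus the saline mean of the same probe (vertical axis) on each saline (grey) and CpG-ODN (red) array, for the detected metallothioneins, SLC30A1 and MTF1. Both SLC30A1 probes, MT1X and MT1F are higher on every CpG-ODN array than on any saline array, and the other probes overlap.

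Beyond the 10 members, 61 further genes of copper handling, platinum passage, metal binding and thiol chemistry were listed, 57 had a probe and 42 had a kept probe. The brightest kept probe stood for a gene with several. Of the 42, 4 rose and 4 fell (19%), against 12.9% higher and 16.3% lower, 29.2% in all, among the 11023 genes measured. Their median log2 fold change was 0.17, with -0.01 over all genes. Scaling to the median of the kept probes called 9 higher and 3 lower, and scaling to the median of all probes 2 higher and 5 lower. The split therefore followed the scaling, while the number called stayed between 7 and 12 in all alternatives run.

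Of 7 copper-handling genes 1 fell and 0 rose (14.3%, with 29.2% of all genes called). COX17, which delivers copper to the mitochondrial cytochrome oxidase, went from between 13.01 and 13.13 in saline to between 12.51 and 12.71 with CpG-ODN, a log2 fold change of -0.42 ± 0.11 (SE, limma adjusted p = 0.0159). It did not pass with scaling to the median of all probes, where it stood at -0.44 (adjusted p = 0.138), nor with scaling to that of the kept probes, where it stood at -0.24 (adjusted p = 0.136). ATOX1, the chaperone that hands copper to ATP7A and ATP7B, stood at 0.29 (95% interval -0.10 to 0.68, adjusted p = 0.254), and it reached 0.46 (adjusted p = 0.0411) without saline replicate 3.

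Of 6 ABC exporter genes 2 fell and 0 rose (33.3%, near the 29.2% of all genes called). ABCC5, an exporter of nucleotides and glutathione conjugates, went from between 8.37 and 9.13 in saline to between 7.81 and 7.95 with CpG-ODN (log2 fold change -0.85 ± 0.16, SE, limma adjusted p = 0.00395). Its dimmer probe also fell (-0.56, adjusted p = 0.0307), although its groups overlapped. The call was lost without any 1 of 6 arrays, saline replicates 2 to 4 and CpG-ODN replicates 1 to 3 (adjusted p from 0.0591 to 0.0848). It was also lost with detection asked on only 1 array (adjusted p = 0.0543) and with no filter (0.0591). ABCC10, another ABCC exporter, was detected on 0 CpG-ODN arrays. By the group means it was at least 1.18-fold lower, a bound that leaves out the spread between arrays. The fitted log2 change was -0.53 (95% interval -0.82 to -0.24, limma adjusted p = 0.0128), a call lost in 4 alternatives. ABCC10 too passed the filter through the saline group alone, so it adds no support to the count of 2. With no filter its adjusted p was 0.0297. ABCC4 stood at 0.20 (adjusted p = 0.383), ABCC11 at 0.24 (adjusted p = 0.286) and ABCC12 at -0.14 (adjusted p = 0.782). The brighter probe of ABCB1, the P-glycoprotein gene, stood at 0.28 (95% interval -0.11 to 0.66, adjusted p = 0.273) and the dimmer rose by 0.86 (95% interval 0.58 to 1.15, adjusted p = 0.00104), and the difference between both was not tested.

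Among 5 other genes linked to platinum passage ATP11B fell (20%, with 29.2% of all genes called). It encodes a P4-type flippase that has been tied to cisplatin export in ovarian cancer cells. Its brighter probe went from between 9.26 and 9.49 in saline to between 8.11 and 8.41 with CpG-ODN, and its dimmer probe from between 7.36 and 7.95 to between 6.66 and 7.002. The log2 fold changes were -1.12 ± 0.12 (SE, limma adjusted p = 0.000168) and -0.88 ± 0.16 (SE, limma adjusted p = 0.00298). LRRC8A and LRRC8D, subunits of the volume-regulated anion channel through which platinum drugs can enter, gave 0.33 (adjusted p = 0.108) and 0.16 (adjusted p = 0.548), neither past the threshold. TMEM205, a membrane protein linked to cisplatin resistance, stood at -0.13 (adjusted p = 0.505).

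Of 12 glutathione S-transferase genes beside GSTP1, 1 rose and 0 fell (8.33%, with 29.2% of all genes called). GSTM4 rose by 0.62 ± 0.17 (SE, limma adjusted p = 0.0216), a call lost with median scaling over all probes (adjusted p = 0.205) and without any 1 of saline replicates 1 and 3 and CpG-ODN replicates 3 and 4 (adjusted p from 0.0514 to 0.0566). For its relative GSTM1 the dimmer of the kept probes rose by 0.71 (adjusted p = 0.0142) and the brighter stood at 0.35 (adjusted p = 0.0929), although neither probe overlapped between the groups. The call of the dimmer probe was lost with scaling to the median of all probes (0.51, adjusted p = 0.102), and the brighter probe passed in 4 alternatives (adjusted p from 0.0259 to 0.0349). Whether probes of 1 GSTM gene bind transcripts of another was not tested. Of 7 genes of glutathione and thioredoxin supply, GCLC, the catalytic subunit of the rate-limiting enzyme of glutathione synthesis, rose (14.3%, with the same 29.2% of all genes). It went from between 9.07 and 9.44 in saline to between 10.03 and 10.34 with CpG-ODN, a log2 fold change of 0.91 ± 0.13 (SE, limma adjusted p = 0.000824). Its dimmer probe gave 0.88 (adjusted p = 0.0404). This call was lost without any 1 of saline replicates 2 to 4 and CpG-ODN replicates 1 to 3 (adjusted p from 0.0784 to 0.102). The call of this GCLC probe was also lost with detection asked on only 1 array (adjusted p = 0.0524) and with no filter (0.0603). The brighter probe of its partner GCLM stood at 0.19 (adjusted p = 0.33) and the dimmer at -0.21 (adjusted p = 0.466), and neither passed, nor did the cystine importer gene SLC7A11, at -0.58 (adjusted p = 0.0784).

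**Figure D4:**
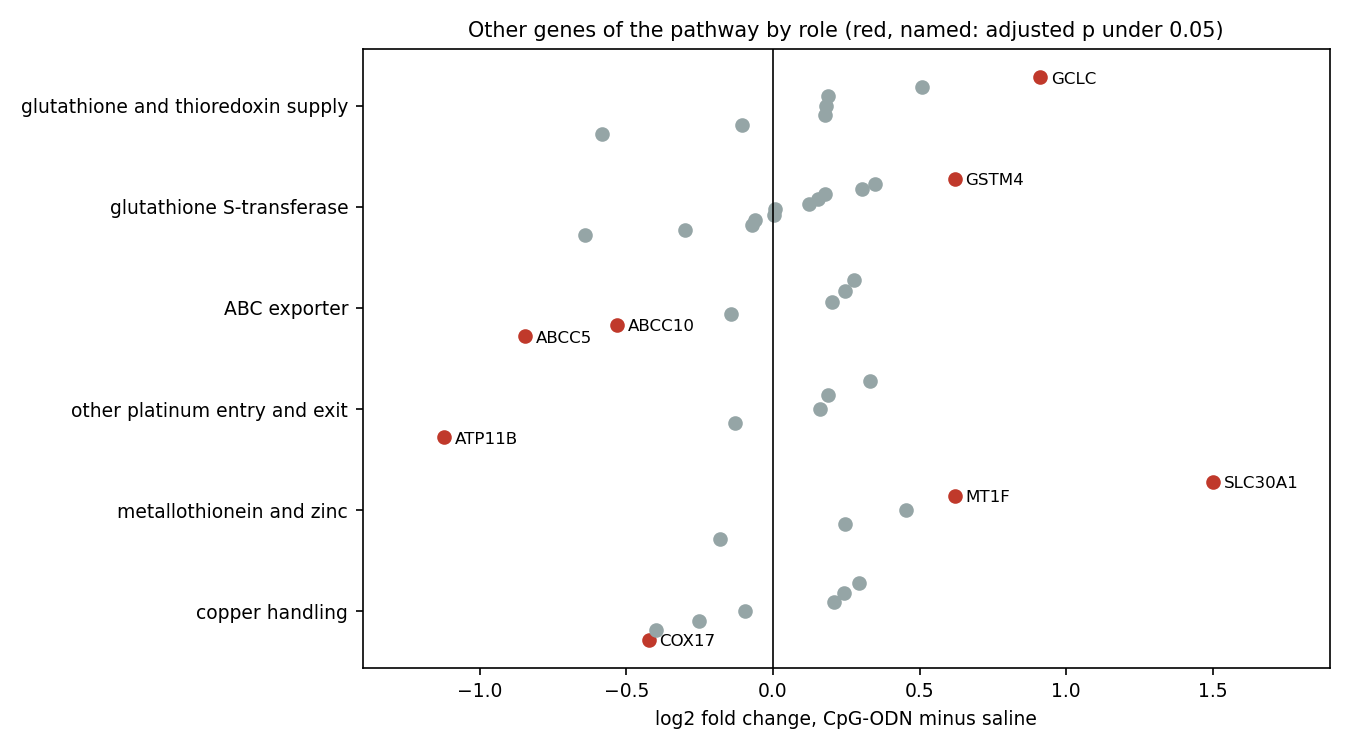
Log2 fold change, CpG-ODN minus saline (horizontal axis), of the 42 other pathway genes with a kept probe, by role, 1 point per gene. The 8 genes past the threshold are red and named, from ATP11B (-1.12) to SLC30A1 (1.503), and ABCC10 was at background with CpG-ODN.

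The kept probes most like a member over the 8 arrays were named by Pearson correlation, as a description. For SLC31A1 these were VAMP1 (0.99), TGFBR2 (0.99) and PHACTR2 (0.989), which also rose, by 1.01, 0.57 and 1.17. Their likeness holds the difference between the groups that they share with SLC31A1. For MT2A they were DCTN6 (0.966), ZXDC (0.963) and QPCT (0.951), none of them called, at 0.18, 0.27 and 0.36.

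The cell line was checked against its markers, each by its brightest probe. KRT8, KRT18, KRT19, EPCAM, PAX8 and MUC16 were detected on all 8 arrays and WT1 on 0. KRT18 rose by 0.75 (adjusted p = 0.00782), while the other 5 detected genes lay below 0 and did not pass. The dimmer kept probes did not all go the same way. For PAX8, 1 of them rose by 0.90 (adjusted p = 0.00115) without overlap and another stood at -0.44 (adjusted p = 0.251). The dimmer probes of EPCAM (0.43, adjusted p = 0.229) and KRT18 (0.49, adjusted p = 0.080) lay above 0 and did not pass. The summed linear level of these epithelial genes with WT1 was 55579 to 59458 on saline arrays. It was lower on CpG-ODN arrays, at 46684 to 53208, and the groups did not overlap. PTPRC, the defining white blood cell gene, was detected on 0 arrays of this human platform. Of 7 white blood cell genes with a probe 4 were kept, with CD14 (0.76) and CD68 (0.65) higher and AIF1 (-1.09) lower. CD14 was near background, detected on 1 saline and 3 CpG-ODN arrays, and its groups overlapped. The dimmer probes of CD14 and AIF1 were detected on 0 arrays. Those of CD68 stood at 0.38 (adjusted p = 0.408) and 0.85 (adjusted p = 0.0567) and did not pass. The summed linear level over the 7 white blood cell genes was 5634 to 7497 on saline arrays and 7067 to 10713 on CpG-ODN arrays. Of 4 vessel genes VWF (1.02) and CDH5 (0.63) rose, with sums of 577 to 683 on saline arrays and 865 to 1171 on CpG-ODN arrays. Of 6 fibroblast genes ACTA2 fell by 1.15, with sums of 2075 to 2736 and 1148 to 1346, in the same order, and with COL1A2 and LUM at background. Of 4 mesothelial genes UPK3B (0.67, adjusted p = 0.0487) rose and LRRN4 (-0.40, adjusted p = 0.0459) fell, with sums from 8263 to 9767 and from 8546 to 9379. The groups of the UPK3B probe overlapped. Its dimmer kept probes stood at 0.47 to 0.98 and did not pass (adjusted p from 0.063 to 0.219). The liver genes ALB, APOA1 and TTR, checked because liver is rich in metallothionein, gave 0 kept genes of 3, with sums from 121 to 144 and from 129 to 156. Apart from that of the liver genes, each sum rested mostly on its brightest gene, so it is no measure of a cell type. These brightest genes were KRT19, CD68, CDH5, ACTA2 and MSLN, in the order of the lists. Their mean log2 signals in saline were 14.98, 12.28, 8.84, 11.07 and 13.01. The part of host cells in the responses of MT1X, SLC31A1 and ATP7A was not tested.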

How the data were processed

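Signals of 8 Illumina bead arrays were analysed. The deposited intensity values are average signals of each probe before any normalization, per the file headers, each beside a deposited detection p-value. A second table of deposited intensity values, normalized by the authors with a method not given in the sources used here, served as an alternative. Per the submitters' processing notes, BeadStudio was used, with no version given. Signals were corrected and quantile normalized by the neqc function of limma 3.58.1 (R 4.3.3, offset 16, background inferred from the detection p-values) and put on the log2 scale. Groups came from the sample titles and were compared with lmFit and eBayes, two-sided, with Benjamini-Hochberg adjustment over the 18184 kept probes, and the fit was tested on simulated data. Probe names came from the platform annotation, updated through gene identifiers with RefSeq on GRCh38.p14. Named genes were all members, pathway genes past the threshold, relatives of members (metallothioneins, ABCC genes, ATOX1, MTF1, SLC31A2), the 3 probes most like MT2A and SLC31A1, and called markers; other named pathway genes (ABCB1, GSTM1, GCLM, SLC7A11, LRRC8A, LRRC8D, TMEM205) were chosen after their values were seen. Members and lists were chosen with earlier results of these data known. Alternatives covered background, normalization, table, filter, prior, array weights, replicate block and each array left out. No chip label was used, so chip was not tested. The labels link no array to a single mouse, so p-values measure the spread between arrays, and their number limits the precision.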

Additional observations from a re-analysis of the deposited data

Results flagged for a closer look

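In 2 of the 20 groups of 4 arrays examined, 1 array stood far from the other 3, and chance gives about 1 in 20. CpG-ODN replicate 3 was the array in both. For the brighter probe of ATP7B it stood at 9.98 with the others at 10.25 to 10.27, a gap of 0.949 of the range of the group. For the brighter probe of MT1E it stood at 6.74 with the others at 7.46 to 7.55, a gap of 0.89 of the range.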

How the results depend on the processing

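In 18 alternatives fixed at the start and 1 chosen after seeing the data, the scaling to the median of the kept probes, MT1X stayed past the threshold, at 0.88 to 1.16. SLC31A1 stayed so, at 0.55 to 0.74, except when arrays were scaled to the median of all probes (0.54, adjusted p = 0.116). ATP7A passed wherever it was kept, at -1.24 to -0.35, the smallest change being without background correction (-0.37 in the second deposited table), and was not kept when detection on all 8 arrays was asked. The remaining probes did not pass, except ABCC2 without CpG-ODN replicate 3 (0.66), where arrays left out in turn gave 0.39 to 0.66. Signs turned without a call for GSTP1 with scaling to the median of the kept probes (0.053), for MT1E with arrays left out (-0.21 to 0.070, above 0 without CpG-ODN replicate 3), for MT1H (-0.0071 to 0.43, below 0 without CpG-ODN replicate 1) and for ABCC12 (-0.45 to 0.071, above 0 without saline replicate 1 or CpG-ODN replicate 4). The cause was not tested. Without background correction the brighter probe of ABCC5 gave -0.53, GSTM4 0.30 and the dimmer probes of ABCC5 -0.27, ATP11B -0.40, GCLC 0.28 and ABCB1 0.40, all past the threshold, while ABCC10 gave -0.16 and ABCC2 0.15, neither past it. Of 18184 probes, 4843 changed, 2322 higher and 2521 lower. Scaling to the median of all probes gave 858 and 2775 and moved the median to -0.10, and scaling to that of the kept probes gave 2920 and 2195 and moved it to 0.10. The replicate block gave 3954 probes, 3 calls among members and 10 among the pathway genes, where 8 were called without it. Deviations of same-numbered arrays correlated at -0.27 to 0.09, so they showed no shared deviation by number. Whether same-numbered arrays shared a processing step was not tested. Probes near background, such as those of ATP7A, ABCC2 and ABCC10, limit the size of their changes. Chip as a block was not run, since no chip is given.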
